A study of Mus musculus with 31 samples.

Results

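Genes that bind fatty acids, carry them across membranes or join them to coenzyme A were followed in mouse brain after an injection of oleic acid into the blood. The 9 genes were Fabp3, Fabp5, Fabp7, Cd36, Slc27a1, Slc27a4, Mfsd2a, Acsl3 and Acsl6, taken as every array row that carries one of these symbols. They were 9 of 36282 genes or unnamed transcripts on the array, and all 9 were among the 25281 tested after dim probes were left out. Together they had 11 probes, since Fabp3 and Acsl6 have 2 each.

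Whole brains of 31 mice, all female C57BL/6 and 6 weeks old, were each measured on 1 single-colour Agilent array. Of these, 17 mice had received oleic acid (1.2 µl per g of body weight, in a volume of 200 µl) through a tail vein, a procedure used to injure the lung acutely. The other 14 mice had received the same volume of physiological serum, and all mice had been anaesthetised with xylazine and ketamine. Oleic acid and serum mice numbered 3 and 3 at 1 h, 3 and 3 at 1.5 h, 3 and 2 at 3 h, 3 and 2 at 4 h, 2 and 2 at 18 h, and 3 and 2 at 24 h after injection. No uninjected mouse was analysed here, so the anaesthesia and the injection are common to every group. The time of day at which brains were taken is not given in the sources used here. In whole-tissue RNA, fewer cells of a type and less RNA per cell cannot be told apart.

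Oleic acid is a long-chain fatty acid that travels in blood bound to albumin or inside lipoproteins. To be used in the brain, a fatty acid crosses the endothelium of the capillaries, is held in the cytosol by a fatty acid binding protein, and is joined to coenzyme A by an acyl-CoA synthetase. Cd36 is a scavenger receptor that takes up fatty acids at the cell surface. Slc27a1 and Slc27a4 encode the fatty acid transport proteins FATP1 and FATP4, which also have acyl-CoA synthetase activity. Mfsd2a is a transporter of the blood-brain barrier endothelium that carries lysophosphatidylcholine with its fatty acid, the main route of docosahexaenoic acid into brain. Fabp3 (heart type), Fabp5 (epidermal type) and Fabp7 (brain type, found in astrocytes and radial glia) are cytosolic carriers. Acsl3 is an acyl-CoA synthetase of the endoplasmic reticulum and of forming lipid droplets, and Acsl6 is the brain isoform known for retaining docosahexaenoic acid.

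The probes below are shown because results turn on them. Each is a 60-base sense-strand probe, and positions are the array annotation's mm9 coordinates. Of each, 30 bases are given, except for the Acsl6 probe nearer the start, which is whole. The Mfsd2a probe lies at chr4:122624182-122624241 on the minus strand. The Acsl6 probes lie on the plus strand at chr11:54174651-54174710 and, nearer the start of the transcript, at chr11:54140634-54140693. They begin at transcript positions 2376 and 925. The Fabp5 probe lies at chr3:10016185-10016244 and the Slc27a4 probe at chr2:29672983-29673042, both on the plus strand.
Mfsd2a: ctgactgggcctagctcggaacactaatgt
Acsl6 (position 2376): agagtacttcaaaaagcaaatagaagagct
Acsl6 (position 925): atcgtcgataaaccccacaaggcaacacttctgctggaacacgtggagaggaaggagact
Fabp5: gtcaaatgcaacaaacagcttcacttcttt
Slc27a4: attaaatgtgtaccaccaccaccctggctt

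Levels are given as log2 Cy3 signal after subtraction of the log2 75th percentile of the array. They compare arrays for 1 probe and do not rank 1 gene against another. Differences are on the same log2 scale with limma's moderated standard error (SE), and a gene was called when its Benjamini-Hochberg adjusted p over all 25281 genes was under 0.05. The mean correlation of an array with the remaining ones was 0.978 to 0.988. The 75th percentile of signal, a measure of array brightness, ranged from 306, on an oleic acid array at 1 h, to 813. The 31 arrays lay on 5 slides that did not hold all groups. At 18 h the oleic acid mice lay on slide 4 and the serum mice on slide 3, and the contribution of slide cannot be told apart from that of treatment. As separate medians over genes, slide held 37.1% of the variance, time 33.7% and treatment 1.26%. Each factor was taken alone and not adjusted for its number of levels, so the shares do not rank the factors.

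Of the 9 genes, 8 were well above background on all 31 arrays. The exception was Cd36, which was well above background on 12 of 17 oleic acid arrays and 8 of 14 serum arrays. Brain endothelium was represented: all 14 of its markers were tested, and their mean level on an array lay between 0.58 and 1.11.

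**Figure D1:**
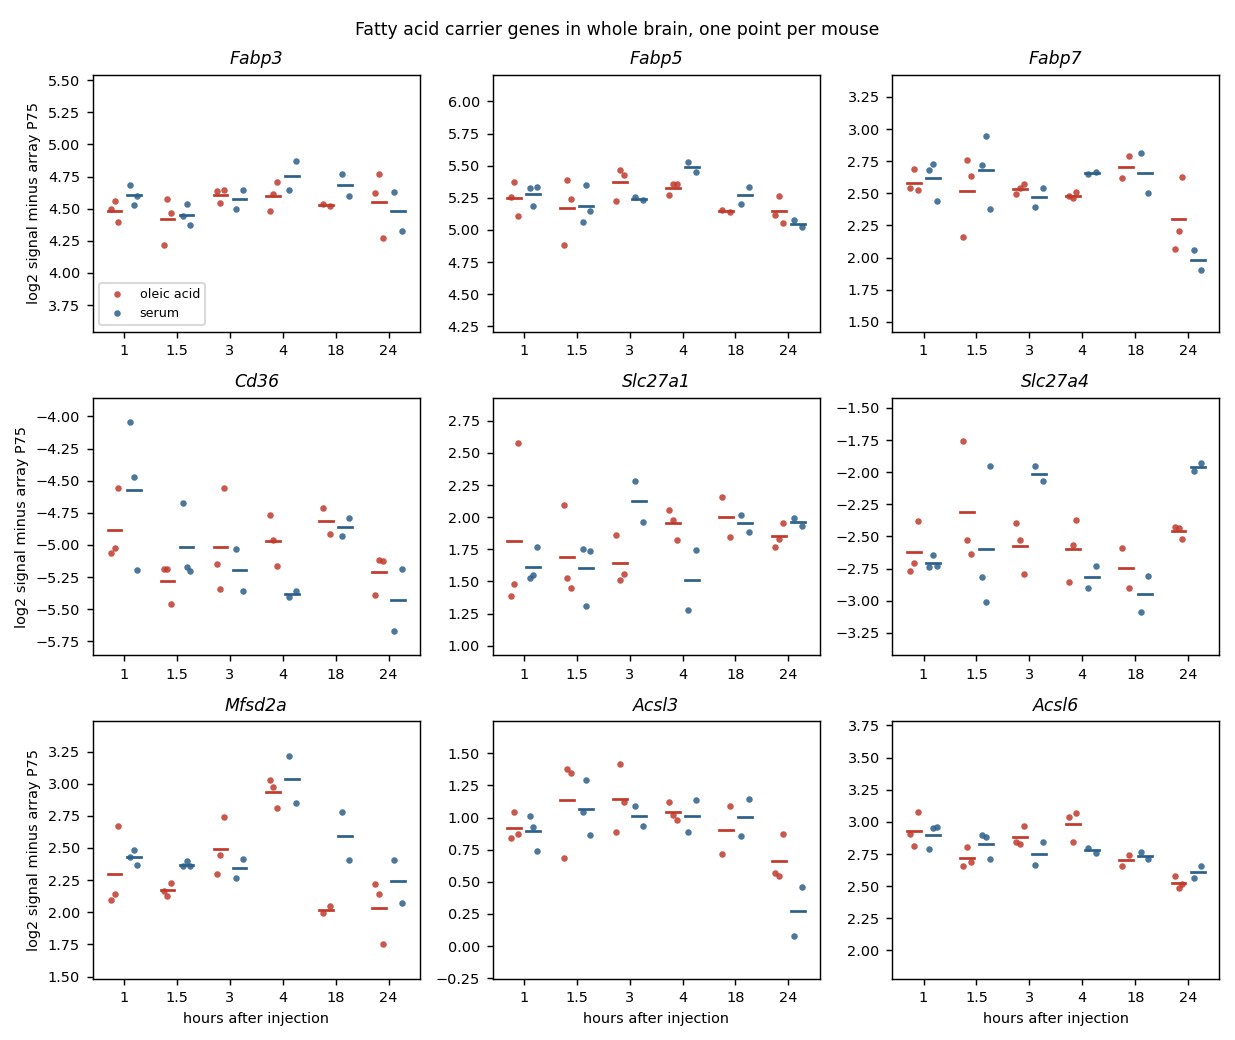
Log2 level relative to the array's 75th percentile (vertical axis) for each of the 9 genes (panels) at each time after injection (horizontal axis, h). Each point is 1 mouse, oleic acid mice stand left of serum mice, and bars are group means. Mfsd2a is highest at 4 h in both treatments, and Acsl3 and Acsl6 are lowest at 24 h.

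No gene of the 9 was called between oleic acid and serum mice in a test adjusted for all genes. Averaged over the 6 times, none of the 9 was called, against 0% of all genes, with limma adjusted p of 0.998 for each. The mean differences ran between -0.18 (Mfsd2a) and 0.09 (Acsl3), with a median of 0.01 over the 9 genes and -0.01 over all genes. At an unadjusted p under 0.05, 1 of the 9 genes passed, Mfsd2a, against 4.58% of all genes.

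Fabp3 averaged 4.53 in 17 oleic acid mice and 4.58 in 14 serum mice, and its mean difference over times was -0.06 ± 0.05 (limma SE). Fabp5 differed by -0.02 ± 0.05 and Fabp7, the astrocyte form, by 0.01 ± 0.07. Acsl6 differed by 0.02 ± 0.04 and Acsl3 by 0.09 ± 0.08. For the carriers at the membrane, Slc27a1 differed by 0.03 ± 0.10, Slc27a4 by -0.05 ± 0.10 and Cd36 by 0.05 ± 0.11. The 95% interval of Fabp5 ran from -0.12 to 0.09, and that of Cd36 was wider, at a SE of 0.11.

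Mfsd2a, the lysophosphatidylcholine transporter, was lower in oleic acid mice at 5 of the 6 times. Its mean difference was -0.18 ± 0.07 (limma unadjusted p = 0.020, adjusted p = 0.998), with a 95% interval from -0.32 to -0.03. At 18 h its levels were 1.99 and 2.05 in oleic acid mice, against 2.78 and 2.41 in serum mice. The groups did not overlap at 18 h, and the difference was -0.57 ± 0.19 (limma unadjusted p = 0.0065, adjusted p = 0.671). At 18 h, however, 52.4% of all genes had groups that did not overlap, and slide differed with treatment. At 1.5 h Mfsd2a levels were 2.17, 2.12 and 2.23 in oleic acid mice, against 2.36, 2.40 and 2.36 in serum mice, again without overlap, as for 10.6% of all genes. That difference was -0.20 ± 0.16, and the 1 oleic acid and 1 serum mouse of that time on the same slide differed by -0.19. At the other times the levels overlapped, with differences of -0.13 ± 0.16 at 1 h, 0.15 ± 0.17 at 3 h, -0.10 ± 0.17 at 4 h and -0.20 ± 0.17 at 24 h. Without the 18 h arrays the mean difference of Mfsd2a over the remaining times was -0.10 ± 0.08.

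Time by time, none of the 9 genes was called by limma. All genes were called at a share of 0% at 1 h, 0% at 1.5 h, 0% at 3 h, 0.00396% at 4 h, 0% at 18 h and 0% at 24 h. At an unadjusted p under 0.05, 0 of the 9 passed at 1, 1.5, 4 and 24 h, against 4.86%, 5.28%, 3.04% and 6.6% of all genes. Slc27a4 passed at 3 h and Mfsd2a at 18 h, against 4.84% and 7.27% of all genes. The test of whether the oleic acid difference changed between times called 0 of the 9 genes, against 0% of all genes, with limma adjusted p between 0.837 and 0.891. At an unadjusted p under 0.05 that test passed 0 of the 9 genes and 5.43% of all genes.

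**Figure D2:**
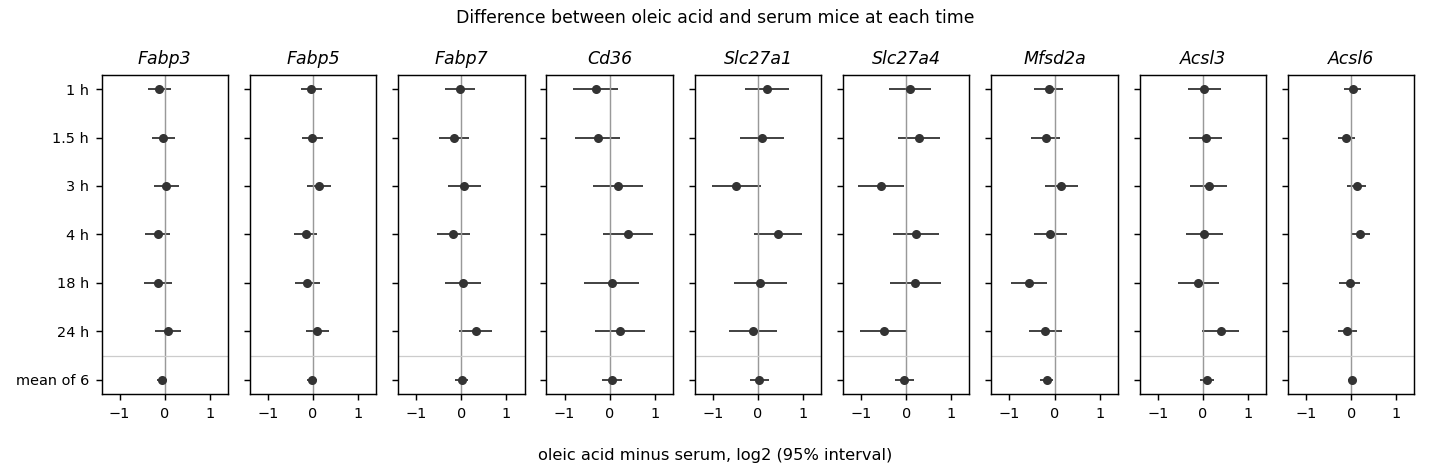
Difference in log2 level between oleic acid and serum mice (0 means equal) for the 9 genes at each time and averaged over the 6 times. Points are limma estimates and bars their unadjusted 95% intervals, which leave out 0 for Slc27a4 at 3 h, Mfsd2a at 18 h and Mfsd2a on average.

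Slc27a4, the gene for FATP4, had levels of -2.40, -2.53 and -2.79 in oleic acid mice at 3 h, against -1.95 and -2.07 in serum mice. The oleic acid mice were all lower, and the difference was -0.56 ± 0.25 (limma unadjusted p = 0.035, adjusted p = 0.938). On the slide that held 2 mice of each treatment it was -0.45. At 24 h its levels were -2.43, -2.44 and -2.52 in oleic acid mice, against -1.99 and -1.93 in serum mice, again without overlap. That difference was -0.50 ± 0.25 (limma adjusted p = 0.752). Groups did not overlap for 17.7% of all genes at 3 h and 28.8% at 24 h.

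Array brightness was set beside these Slc27a4 values. The 75th percentile of signal was 523, 767 and 653 on the oleic acid arrays at 3 h, against 422 and 501 on the serum arrays. At 24 h it was 495, 535 and 754 on the oleic acid arrays, against 376 and 515 on the serum arrays. On slide 4 the 24 h levels fell with brightness. The serum array at 376 had -1.99, and the oleic acid arrays at 495, 535 and 754 had -2.43, -2.44 and -2.52. The serum array at 515, which lay on slide 5, had -1.93. Over the 31 arrays, Slc27a4 was lower where the array was brighter, with r = -0.65 and rho = -0.63 (permutation tests, 100000 permutations, adjusted p = 0.00045 and 0.0027). This was 1 of 9 relations computed, 1 for each gene. In each of them the brightness had also been subtracted to give the level, and the permutation tests do not allow for that shared term. Without the 2 arrays farthest from the median brightness r was -0.63, and after slide means were subtracted it was -0.74. The part of brightness in the Slc27a4 differences was not tested.

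Slc27a1, the gene for FATP1, was also lower on brighter arrays, with r = -0.64 and rho = -0.55 against brightness (permutation adjusted p = 0.00045 and 0.0049), r = -0.49 without the 2 farthest arrays and -0.66 after slide means. Its highest level, 2.58, was on the dimmest array. Its levels at 3 h were 1.86, 1.51 and 1.56 in oleic acid mice, against 2.28 and 1.97 in serum mice. At 4 h the order was opposite, with 2.06, 1.98 and 1.82 in oleic acid mice, against 1.28 and 1.74 in serum mice. The groups were separate at both times, as for 17.7% and 18.2% of all genes, and in opposite directions, with differences of -0.48 ± 0.26 and 0.44 ± 0.26, neither of which limma called. Fabp7 (r = 0.52, rho = 0.58, permutation adjusted p = 0.0083 and 0.0030) and Acsl3 (r = 0.47, rho = 0.43, adjusted p = 0.019 and 0.037) were higher on brighter arrays. After slide means these were r = 0.45 and 0.54, and without the 2 farthest arrays 0.55 and 0.50. For Fabp5 the relation rested on those 2 arrays, with r = 0.40 over all (permutation adjusted p = 0.046) and 0.19 without them. For Mfsd2a r was -0.26 and rho -0.29 (permutation adjusted p = 0.24 and 0.17), r was -0.33 without the 2 farthest arrays and -0.57 after slide means. For Fabp3, Cd36 and Acsl6 the permutation adjusted p of r was 0.677, 0.782 and 0.808.

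Cd36, the scavenger receptor, was the faintest signal relative to background. At 4 h its levels were -4.77, -4.96 and -5.17 in oleic acid mice, against -5.40 and -5.36 in serum mice. Of these, 2 of the 3 oleic acid arrays and 0 of the 2 serum arrays were well above background. The array at -4.77 had 76.3% of its spots well above background, the highest share of all arrays. No fold is given, because 1 of the oleic acid arrays was itself not well above background. At 3 h, 3 of 3 oleic acid and 0 of 2 serum arrays were well above background, but the levels overlapped, at -5.15, -5.35 and -4.56 in oleic acid mice against -5.03 and -5.36 in serum mice. The 75th percentile of signal was 523, 767 and 653 on those oleic acid arrays, against 422 and 501 on the serum arrays. The part of brightness in these flags was not tested. Among the 3 h mice on slide 2, 2 per treatment, the difference was -0.05. Neither time was called by limma. Its highest level in the study was -4.04, in a serum mouse at 1 h.

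Acsl3 was higher in oleic acid mice at 24 h, at 0.57, 0.55 and 0.88, against 0.08 and 0.46 in serum mice. The groups did not overlap, as for 28.8% of all genes at 24 h, and the difference of 0.39 ± 0.20 was not called (limma adjusted p = 0.752). Acsl6 was higher at 4 h, at 3.04, 2.85 and 3.07 in oleic acid mice, against 2.80 and 2.76 in serum mice. All 5 of these mice lay on the same slide, and the difference was 0.20 ± 0.10 (limma unadjusted p = 0.058). Fabp7 at 24 h had levels of 2.07, 2.21 and 2.62 in oleic acid mice, against 2.06 and 1.91 in serum mice, a difference of 0.32 ± 0.18. None of these 3 genes kept the same order of treatments at all times.

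Calls among the 9 genes came with time after injection, and Mfsd2a had the smallest adjusted p. Over both treatments its mean level was 2.36 ± 0.22 at 1 h (SD, n = 6), 2.27 ± 0.12 at 1.5 h (n = 6), 2.43 ± 0.19 at 3 h (n = 5), 2.98 ± 0.16 at 4 h (n = 5), 2.31 ± 0.36 at 18 h (n = 4) and 2.12 ± 0.24 at 24 h (n = 5). The 5 mice at 4 h had levels of 3.03, 2.97 and 2.81 after oleic acid and 3.22 and 2.85 after serum. All 5 lay above every mouse of the other times. Mfsd2a was 1.30-fold higher at 3 and 4 h than at 1 and 1.5 h, a difference of 0.38 ± 0.08 (limma adjusted p = 0.0058). It was the only one of the 9 called there, against 9.46% of all genes, and 6.69% of all genes were called higher. It then fell by 0.48 ± 0.09 at 18 and 24 h relative to 3 and 4 h (limma adjusted p = 0.00097), a 1.39-fold lower signal.

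These Mfsd2a calls depended on the 4 h mice and on slide. Without the 4 h arrays, 3 h minus 1 and 1.5 h was 0.10 ± 0.10 (limma adjusted p = 0.734), and 18 and 24 h minus 3 h was -0.20 ± 0.11 (adjusted p = 0.281). All 4 h arrays lay on slide 3. With slide as a fixed block the later difference was -0.56 ± 0.27 (adjusted p = 0.411) and the earlier one 0.18 ± 0.29 (adjusted p = 0.966). With slide as a random block the later one was -0.50 ± 0.12 (adjusted p = 0.014) and the earlier one 0.36 ± 0.12 (adjusted p = 0.205). With arrays scaled to their median, the earlier difference was 0.34 ± 0.11 (adjusted p = 0.080).

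A pair of tested comparisons of times lay each within a single slide. In oleic acid mice on slide 4, Mfsd2a was at 2.22, 2.14 and 1.75 at 24 h, against 1.99 and 2.05 at 18 h, and the difference was 0.02 ± 0.17 (limma adjusted p = 1.00). Serum mice had Mfsd2a levels of 2.78 and 2.41 at 18 h, against 3.22 and 2.85 at 4 h, all on slide 3. The groups did not overlap, as for 38.9% of all genes in that comparison, and the difference was -0.44 ± 0.19 (limma unadjusted p = 0.031, adjusted p = 0.38). None of the 9 genes was called there, against 0.937% of all genes, and at an unadjusted p under 0.05 Mfsd2a alone passed, against 10.7% of all genes. Oleic acid mice of 3 h and 1.5 h shared slide 2, where 2 mice of each time differed by 0.20 in Mfsd2a, with no test.

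**Figure D3:**
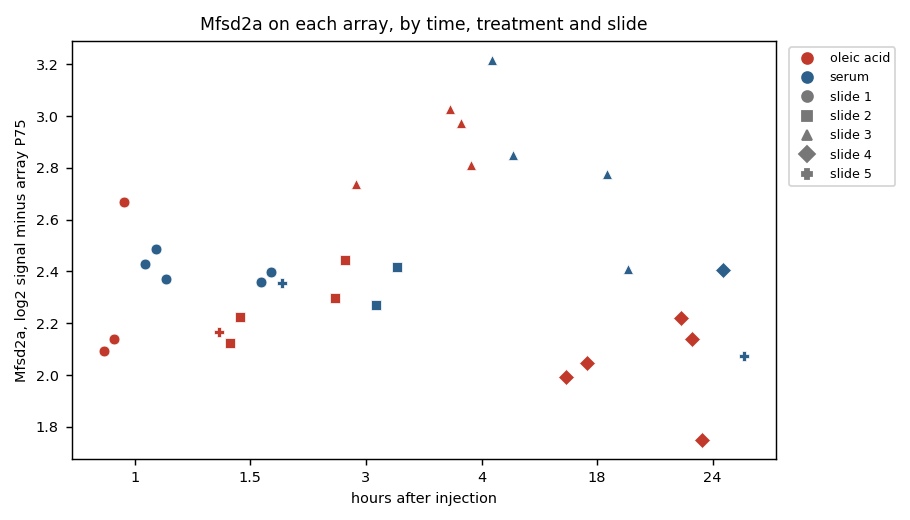
Log2 level of Mfsd2a relative to the array's 75th percentile (vertical axis) on each of the 31 arrays by time (horizontal axis, h), oleic acid left of serum at each time, with the marker shape giving the slide. The 5 arrays at 4 h lie on slide 3 and stand at 2.81 to 3.22, above all others, and the serum arrays at 18 h on slide 3 stand at 2.78 and 2.41.

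At 18 and 24 h, 4 of the 9 genes were called lower than at 3 and 4 h and none higher, against 12.7% of all genes called and 7.73% called lower. Besides Mfsd2a they were both acyl-CoA synthetases and Fabp5. The median difference was -0.12 over the 9 genes and -0.02 over all genes. Acsl3 fell by 0.34 ± 0.10 (limma adjusted p = 0.028), Acsl6 by 0.20 ± 0.05 (adjusted p = 0.012) and Fabp5 by 0.21 ± 0.06 (adjusted p = 0.039). Against 1 and 1.5 h, Acsl6 alone was called at 18 and 24 h, at -0.20 ± 0.05 (adjusted p = 0.012). Of all genes 11.3% were called in that comparison and 5.02% were called lower. Acsl3 was at -0.30 ± 0.10 there (adjusted p = 0.0501).

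Acsl3 had its lowest levels at 24 h. The mean over both treatments was 0.91 ± 0.11 at 1 h (SD, n = 6), 1.10 ± 0.28 at 1.5 h (n = 6), 1.09 ± 0.21 at 3 h (n = 5), 1.03 ± 0.10 at 4 h (n = 5), 0.95 ± 0.20 at 18 h (n = 4) and 0.51 ± 0.29 at 24 h (n = 5). Without the 24 h arrays, 18 h minus 3 and 4 h was -0.10 ± 0.13 (limma adjusted p = 0.739). Fitting slide as a fixed block turned the sign, to 0.39 ± 0.25 (adjusted p = 0.535). Leaving out 1 array ended the call in 6 of 31 fits, with differences of -0.30 to -0.32 and adjusted p up to 0.088. Those 6 arrays were oleic acid array 2 and serum array 1 of 3 h, serum array 2 of 4 h, oleic acid array 1 and serum array 1 of 18 h, and serum array 1 of 24 h.

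Acsl6 gave different answers from its 2 probes. By the probe at position 2376, mean levels were 2.92 ± 0.10 at 1 h (SD, n = 6), 2.77 ± 0.10 at 1.5 h (n = 6), 2.83 ± 0.11 at 3 h (n = 5), 2.90 ± 0.14 at 4 h (n = 5), 2.72 ± 0.05 at 18 h (n = 4) and 2.56 ± 0.07 at 24 h (n = 5). The 5 mice of 24 h were at 2.58, 2.49 and 2.51 after oleic acid and 2.57 and 2.66 after serum, the lowest mean of the 6 times. The probe at position 925 did not fall: 18 and 24 h minus 3 and 4 h was 0.12 ± 0.09 (limma unadjusted p = 0.21) and minus 1 and 1.5 h it was 0.03 ± 0.09. Between oleic acid and serum, that probe gave -0.35 ± 0.16 at 1 h (limma unadjusted p = 0.039) and -0.44 ± 0.18 at 3 h (limma unadjusted p = 0.024), not adjusted over genes, and 4.86% and 4.84% of all genes were under an unadjusted p of 0.05 at those times. The sign was opposite at the other times, with 0.22 at 1.5 h, 0.22 at 4 h, 0.20 at 18 h and 0.06 at 24 h. Its mean difference over the 6 times was -0.01 ± 0.07 (limma unadjusted p = 0.85). With the mean of both probes the later difference of Acsl6 was -0.04 ± 0.06 (adjusted p = 0.671). Without the 24 h arrays the 2376 probe gave -0.13 ± 0.07 against 3 and 4 h (adjusted p = 0.327), and with slide as a fixed block -0.04 ± 0.15 (adjusted p = 0.935).

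**Figure D4:**
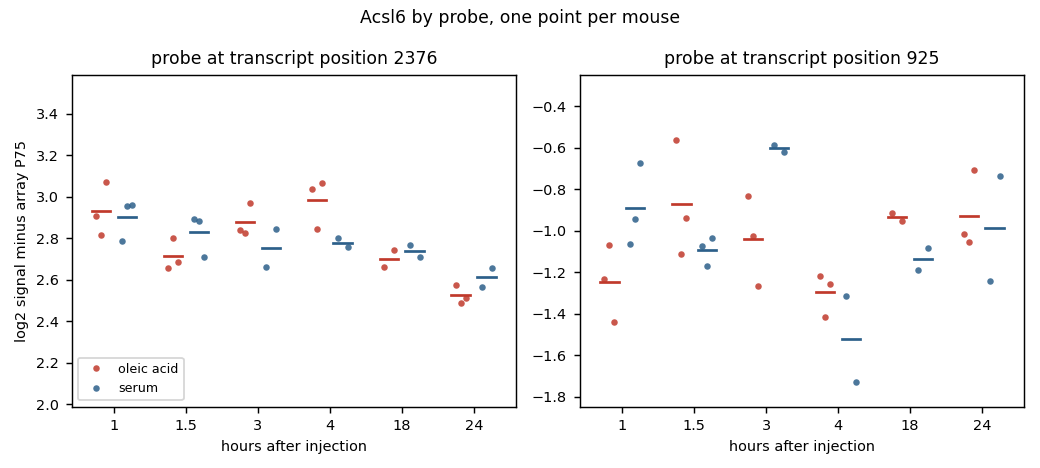
Log2 level of the 2 Acsl6 probes on each of the 31 arrays, on a vertical axis centred on that probe's mean, by time (horizontal axis, h), oleic acid left of serum. The probe at position 2376 is lowest at 24 h, while the probe at position 925 is not lower at 18 and 24 h.

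Fabp5 levels at 18 h were 5.16 and 5.14 in oleic acid mice and 5.20 and 5.34 in serum mice. At 24 h they were 5.11, 5.26 and 5.06 in oleic acid mice and 5.08 and 5.02 in serum mice. At 4 h they were 5.27, 5.36 and 5.35 in oleic acid mice and 5.53 and 5.45 in serum mice. The call at 18 and 24 h against 3 and 4 h held in 16 of 31 fits without 1 array, with adjusted p of 0.015 to 0.095 and differences of -0.22 to -0.19. It was lost without oleic acid array 2 or 3 or either serum array of 3 h or of 4 h, either oleic acid array or serum array 1 of 18 h, or oleic acid array 1 or 3 or either serum array of 24 h. A fixed block for slide turned the sign, to 0.11 ± 0.17 (adjusted p = 0.813).

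The plot of late against middle times sets the fits with and without slide side by side. Slc27a4 was at -0.72 ± 0.23 with slide as a fixed block (limma adjusted p = 0.192) and at -0.03 ± 0.13 without it (adjusted p = 0.912), called in neither fit.

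**Figure D5:**
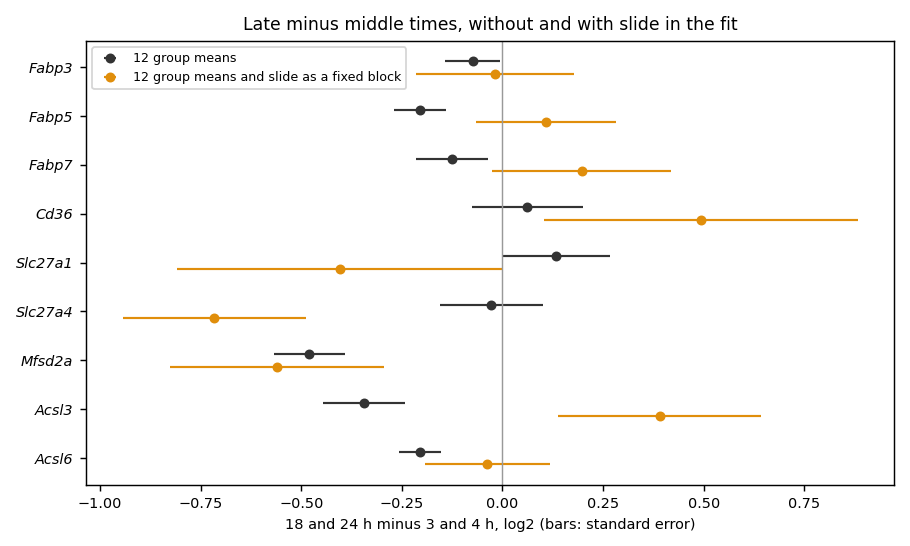
Difference in log2 level of the 9 genes between 18 and 24 h and 3 and 4 h, both treatments, from the 12 group means alone and with slide as a fixed block; bars are limma SE. Without slide Mfsd2a, Acsl3, Acsl6 and Fabp5 were called lower, at -0.48, -0.34, -0.20 and -0.21. With slide none was called, and Acsl3 and Fabp5 lay above 0.

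Time was also tested in each treatment alone. In serum mice limma's F-test over the 6 times called Slc27a4 (adjusted p = 0.046) and none of the other 8, against 10.4% of all genes. Mfsd2a (0.0502), Fabp7 (0.064) and Acsl3 (0.066) had the next smallest adjusted p. In oleic acid mice it called Mfsd2a (adjusted p = 0.0068) and Acsl6 (0.019), against 7.08% of all genes. Whether time acts differently in the 2 treatments was tested by the change of the oleic acid difference between times, which called none of the 9 genes. The Slc27a4 call was lost in 22 of the 31 fits without 1 array (adjusted p 0.007 to 0.108 over the 31). It was kept without oleic acid array 3 of 1 h, any serum array of 1.5 h, oleic acid array 1 or 3 of 1.5 h or of 3 h, or oleic acid array 1 of 4 h. The Acsl6 call was lost without oleic acid array 1 or 3 of 4 h or array 2 of 24 h, with adjusted p of 0.052 to 0.059. Neither test called any of the 9 with slide as a fixed block.

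Fabp7, the astrocyte binding protein, had its lowest levels at 24 h without being called. Its mean was 2.60 ± 0.11 at 1 h (SD, n = 6), 2.60 ± 0.28 at 1.5 h (n = 6), 2.51 ± 0.07 at 3 h (n = 5), 2.55 ± 0.10 at 4 h (n = 5), 2.68 ± 0.15 at 18 h (n = 4) and 2.17 ± 0.27 at 24 h (n = 5). In oleic acid mice, all on slide 4, it was at 2.07, 2.21 and 2.62 at 24 h, against 2.62 and 2.79 at 18 h. That difference was -0.40 ± 0.18 (limma unadjusted p = 0.031, adjusted p = 1.0). None of the 9 genes was called in it, against 0% of all genes, and Fabp7 alone passed at an unadjusted p under 0.05, against 2.09% of all genes. Fabp3 stayed between 4.22 and 4.87 on all arrays and was called in none of the comparisons. Its 2 probes, which overlap, gave 0.15 ± 0.06 and 0.08 ± 0.06 at 3 and 4 h against 1 and 1.5 h.

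Other genes of fatty acid handling were followed in 6 lists. None of their members was called for the mean oleic acid difference. Of 16 tested lipid droplet genes, 13 were lower and 3 higher, with a median of -0.04. Its smallest unadjusted p were those of Fitm2, which helps droplets form, at -0.14 ± 0.06, Plin5 at -0.14 ± 0.08 and Pnpla2, the adipose triglyceride lipase, at 0.09 ± 0.09. Among 14 acyl-CoA binding proteins and thioesterases, 2 passed at an unadjusted p under 0.05, Acot8 at -0.16 ± 0.06 and Acot13 at -0.11 ± 0.05, and Scp2 was next at -0.09. In the remaining lists 0 passed even unadjusted. These were 8 other fatty acid or retinol binding proteins (Rbp4, -0.09; Fabp12, -0.38 ± 0.40) and 3 other transport proteins (Slc27a3, -0.11; Slc27a5, -0.17; Slc27a2, -0.07). They also held 8 other acyl-CoA synthetases (Acsl4, 0.06; Acss2, -0.03; Acsl5, 0.03) and 19 uptake and lipoprotein partners (Lmf1, -0.09; Apod, -0.13; Cav2, 0.08).

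Among lipid droplet genes, 7 of 16 rose at 3 and 4 h against 1 and 1.5 h in the fit without slide, where 6.69% of all genes were called higher. In all, 14 of the 16 were higher, with a median of 0.20 against 0.05 over all genes. The list's mean level stood highest at 4 h, at 0.55 in oleic acid mice and 0.49 in serum mice, and at 3 h it was 0.20 in oleic acid mice and 0.16 in serum mice. Without the 4 h arrays 1 of the 16 was called, Pnpla2, and the median was 0.05. With slide as a random block Pnpla2 was again the 1 called, and with slide as a fixed block 0 of the 16 and 3 of all genes were called. In the fit without slide, Plin4, a droplet coat protein, rose by 1.48 ± 0.36, Pnpla2 by 0.68 ± 0.10, Dgat2, which makes triglyceride, by 0.39 ± 0.08 and Plin5 by 0.37 ± 0.09. Plin2, Cidea and Fitm2 rose by 0.25, 0.26 and 0.21. Among the uptake partners 2 of 19 were called higher: Angptl4, a secreted inhibitor of lipoprotein lipase, by 1.66 ± 0.15, and Spns2, a sphingosine-1-phosphate exporter, by 0.43 ± 0.07. Slc27a3 was the 1 of 3 other transport proteins called, at 0.33 ± 0.09. These counts come from the fit without slide. With a random block, and without the 4 h arrays, Angptl4 was the 1 called of those 3, and with the fixed block none of them was. None was called among the other synthetases, the other binding proteins, and the acyl-CoA binding proteins and thioesterases.

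At 18 and 24 h against 3 and 4 h, 4 of the 16 lipid droplet genes were called lower, where 7.73% of all genes were, and Abhd5, the activator of Pnpla2, was called higher at 0.29 ± 0.07. The 4 lower ones were Plin4, which fell by 1.34 ± 0.39, Pnpla2 by 0.85 ± 0.11, Plin5 by 0.53 ± 0.10 and Dgat2 by 0.44 ± 0.09. A random block for slide left 3 of the 16 called, all lower (Pnpla2, Plin5 and Dgat2), and a fixed block 0 of the 16 and 108 of all genes. Without the 4 h arrays 3 of the 16 were called, Pnpla2, Abhd5 and G0s2, 1 lower and 2 higher, and the median of the 16 was 0.04 in place of -0.12. Angptl4 fell by 1.49 ± 0.17 and Spns2 by 0.45 ± 0.07, both called with the random block too and neither with the fixed one. Acsf3 of the synthetases (-0.25 ± 0.07) and Acot9 of the thioesterases (-0.19 ± 0.06) were each the 1 called of their list. Angptl4 was also called within slide 3, where serum mice at 18 h lay 1.95 ± 0.35 below those at 4 h. Genes not among the 3 smallest p of their list were picked for mention once their values were known. At 18 and 24 h against 1 and 1.5 h, Fabp2 was called higher among the binding proteins, at 0.79 ± 0.24.

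In serum mice alone, the F-test over time called Angptl4 (limma adjusted p = 0.0014) and Spns2 (0.0064) among the uptake partners. It called Pnpla2 (0.012) and Plin5 (0.038) among droplet genes, with Fitm2 at 0.052, and Slc27a3 (0.047) among transport proteins. Acss2, which activates acetate, was called at 0.040, ahead of Acsf2 (0.068) and Acsl4 (0.080). Fabp1 was at 0.052, Fabp12 at 0.11 and Fabp2 at 0.19. Acot1 was at 0.070, Acot13 at 0.076 and Acot8 at 0.10.

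Mfsd2a is an endothelial gene, and the other endothelial genes gave a different count. At 3 and 4 h against 1 and 1.5 h, 6 of the 14 were higher and 8 lower, with a median of -0.06. None was called higher and 2 were called lower, Slco1a4 at -0.35 and Tek at -0.34. Of all genes, 9.46% were called in that comparison and 6.69% were called higher. At 18 and 24 h against 3 and 4 h their median was 0.16, with Slco1a4 (0.40), Tek (0.56) and Emcn (0.38) called higher and Slc2a1 (-0.58) called lower. There 12.7% of all genes were called and 7.73% were called lower. The mean endothelial level at 4 h lay between 0.58 and 0.92, and over 31 arrays it correlated with Mfsd2a at r = 0.11. For astrocyte markers the median at 18 and 24 h against 3 and 4 h was -0.11, with 0 of 10 called. Adipose markers, of which 4 of 8 were tested, had medians of 0.21 at 3 and 4 h against 1 and 1.5 h (1 called, Cidea) and -0.31 at 18 and 24 h against 3 and 4 h (0 called). Other medians for 18 and 24 h against 3 and 4 h were larger than those of the 9 genes. They were 1.44 for anterior pituitary and 0.87 for cerebellar granule cell markers, with 0 called in each. Both lists differed widely between mice of the same group. The mean pituitary level at 24 h was -3.05 and 2.93 in serum mice and -3.44 to 2.74 in oleic acid mice. The mean granule cell level at 4 h was -2.57 and 1.29 in serum mice and -2.54 to 1.36 in oleic acid mice. The part of dissection, or of cell makeup, in the differences over time was not tested.

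None of the 8 erythroid markers tested was called between treatments by limma. All 8 were lower in oleic acid mice, with a median of -0.57, and 6 had an unadjusted p under 0.05, against 4.58% of all genes. Endothelial markers had a median of -0.04 between treatments, with 10 of 14 lower. At 18 h, where Mfsd2a stood lowest in oleic acid mice, the mean endothelial level was 0.75 and 0.77 in oleic acid mice, against 0.89 and 1.11 in serum mice. At that time 13 of 14 endothelial markers were lower, with a median of -0.23. All 9 cerebellar granule cell markers were higher in oleic acid mice there, with a median of 1.65. Their mean level was 1.30 and 1.57 in oleic acid mice, against -1.71 and 1.13 in the serum mice, which lay far apart. Of 12 microglia and macrophage markers 11 were lower, with a median of -0.39, and none of either list was called. The part of these RNAs in that Mfsd2a difference was not tested.

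The pattern of each of the 9 genes over the 31 arrays was compared with 15096 other named genes. The arrays share slides and times, so these correlations are descriptions. Mfsd2a was most like Mt1, a metallothionein, at r = 0.91 (rho = 0.89, and 0.84 after slide means were subtracted) and Ptpdc1 at 0.89. Fabp7 was most like Idi1, an enzyme of isoprenoid synthesis, at 0.85 and Gabrg1, a GABA receptor subunit, at 0.82. Fabp5 was most like Snrpa1 at 0.89 and Fabp5l2 at 0.88. Fabp5l2 is a Fabp5 copy whose probe shares runs of at most 8 bases with that of Fabp5. Whether the Fabp5l2 probe matches another part of the Fabp5 transcript was not examined, so both probes may read the same RNA. Fabp3 was most like Ppdpf at 0.92 and Uqcrq, a subunit of respiratory complex III, at 0.91. Slc27a1 was most like Emc10 at 0.88 and Cdk16 at 0.86, and Slc27a4 most like Krtap10-10 and Acad10, both at 0.91. Acsl3 was most like Clasp1 at 0.90 and Rab10 at 0.89. Acsl6, at 0.80 with Zfp639 and with Slc35b3, and Cd36, at 0.63 with Sftpc and 0.62 with Akr1e1, had no neighbour as close. The mean of the lipid droplet list correlated with Mfsd2a at r = 0.90 (rho = 0.84, and 0.77 after slide means).

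Slide and time held 70.6% and 65.2% of the variance of Mfsd2a and treatment 4.64%. For Acsl6 the shares were 62.2%, 63.5% and 0.17%, and for Slc27a1 10.7%, 14.0% and 0.66%. The shares, again each taken alone, overlap, because most times lie on 1 or 2 slides. Within groups the SD was smallest for Acsl6, at 0.091, and largest for Cd36, at 0.30, and Slc27a1, at 0.29.

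Promoters of Mfsd2a and Acsl3, both called over time in the fit without slide, are shown to give their sequence context. Of the 9 genes, 8 had an entry among the 32851 RefSeq promoters (GRCm38.p6), with 12 start sites between them, and Fabp5 is named only. The 250 bases before the start of Mfsd2a (chr4:122961189-122961438, minus strand, 61.6% GC) and of Acsl3 (chr1:78657575-78657824, plus strand, 75.6% GC) follow, against a median GC of 52.4% over all promoters. Capitals mark a CCAAT box, which is 15 to 11 bases before the start of Acsl3 and, on the opposite strand as ATTGG, 54 to 50 bases before that of Mfsd2a.
Mfsd2a promoter: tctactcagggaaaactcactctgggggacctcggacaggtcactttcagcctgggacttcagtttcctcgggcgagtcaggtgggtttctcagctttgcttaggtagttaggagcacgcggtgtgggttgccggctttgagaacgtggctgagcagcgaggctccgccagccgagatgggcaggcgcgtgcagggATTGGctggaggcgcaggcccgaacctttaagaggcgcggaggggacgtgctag
Acsl3 promoter: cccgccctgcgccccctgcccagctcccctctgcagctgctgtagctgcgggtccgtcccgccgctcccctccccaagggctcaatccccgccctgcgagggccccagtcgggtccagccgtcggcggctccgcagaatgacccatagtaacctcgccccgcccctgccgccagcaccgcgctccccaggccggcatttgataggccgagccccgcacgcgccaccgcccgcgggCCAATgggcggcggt

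Searched on both strands of the 250 bases before each start, CCAAT was found in 8 of the 12 promoters of these genes and in 33.8% of all promoters, and the GC box GGGCGG in 8 of 12 and 32.7%. Slc27a1 and Acsl6 each have more than 1 of these starts, so the 12 are not separate genes. GC content was not matched, and enrichment was not tested. In Acsl3 the CCAAT box and a GC box overlapped by no base. The E-box CACGTG was in 1 of 12, a start of Slc27a1, and in 6.02% of all. The D-box TTATGNAA (3.07% of all), the cyclic AMP response element TGACGTCA (1.55%), the full palindromic glucocorticoid response element (0.00913%) and the direct repeat 1 element of nuclear receptors (0.0335%) were in 0 of the 12. These are matches of letters in a fixed window and not sites.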

How the data were processed

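RNA of 31 mouse brains was measured on 1-colour Agilent arrays. Per the submitters' processing notes and the file headers, the authors extracted scans with Agilent Feature Extraction 10.5.1.1, and the deposited files hold Cy3 intensity for 62976 spots, background-subtracted and not normalized between arrays. The deposited value table, used as an alternative, holds log2 values. Flag columns of 0 or 1, per the file headers, mark spots above background, saturated (0 found) or non-uniform (at most 107 on an array, set to missing).

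Processed intensity was taken as log2 minus each array's 75th percentile, and repeated spots were averaged. A probe was kept if all arrays of 1 or more groups flagged it as well above background and all 31 measured it, which left 35499 of 55681. The brightest probe stood for a gene. Probe names came from the files, updated for 26582 probes through RefSeq accessions (GRCm38.p6), and probe coordinates are mm9.

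A model of 12 group means (19 residual degrees of freedom) was fitted with limma 3.58.1 in R 4.3.3, and p-values were adjusted by Benjamini-Hochberg over 25281 genes. The labels describe separate mice. Comparisons were oleic acid minus serum at each time and on average, its change between times, and time within and over treatments. Time contrasts of serum mice at 18 and 4 h and of oleic acid mice at 24 and 18 h, and the fits without the 4, 18 or 24 h arrays, were added after the data were seen. The code was tested on simulated data.

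All 9 genes are named in every comparison. From each pathway list the 3 smallest p for the mean treatment difference and for time in serum mice are named, and for likeness the 2 highest r. Some items that this rule would name are not reported here. The genes and lists were chosen with earlier results of these data known. The number of arrays limits the precision: on an array 54.3% to 76.3% of spots (median 62.2%) were well above background.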

Additional observations from a re-analysis of the deposited data

How the results depend on the processing

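No gene of the 9 gained a call between oleic acid and serum under any alternative tried, and without each array in turn the number called stayed at 0 to 0 for every such comparison. The calls over time moved. The number of the 9 called was 1 for time in serum mice, 2 for time in oleic acid mice, 1 for 3 and 4 h against 1 and 1.5 h, 1 for 18 and 24 h against 1 and 1.5 h, and 4 for 18 and 24 h against 3 and 4 h. In that order, leaving out 1 array gave 0 to 4, 1 to 2, 1 to 1, 1 to 3 and 2 to 4. Slide as a fixed block gave 0 for all 5, and Acsl3 (0.39) and Fabp5 (0.11) turned sign at 18 and 24 h against 3 and 4 h. With slide as a random block (correlation within slides 0.218) they were 0, 0, 0, 0 and 1, the last being Mfsd2a. Scaling to the array median gave 0, 0, 0, 0 and 1. Without the 4 h arrays the tests of time in serum and in oleic acid mice, the early and the last comparison gave 0. Without the 24 h arrays time in serum mice gave 0, time in oleic acid mice 1, and 18 h gave 0 against 1 and 1.5 h and 1 against 3 and 4 h. Normexp background correction gave 1 for time in oleic acid mice, 0 for 18 and 24 h against 1 and 1.5 h and 2 against 3 and 4 h, and the deposited values gave 0, 1 and 2 for time in serum mice, in oleic acid mice and the last comparison. Quantile normalization gave 0, 1 and 2 for time in serum mice, in oleic acid mice and 18 and 24 h against 1 and 1.5 h. Time in serum mice gave 0 with no filter, 2 with a filter of 24 arrays and 4 with trend and robust options, and the last 2 settings gave 2 at 18 and 24 h against 1 and 1.5 h. There scan date as a block gave 3 and the replicate block 2, and the mean of all probes gave 1 for time in oleic acid mice. The replicate block changed no other number of the 9 called by over 1.5 times. Of 14 pairs of same-numbered oleic acid and serum mice, 3 deviated together with a correlation over 0.1 (range -0.62 to 0.39). Deviations within a group of 2 mice mirror each other, so this cannot exclude a pairing, and the fit treats the mice as unpaired. Over all genes, the comparisons over time called 2640, 1789, 2391, 2845 and 3208 genes in the same order, and between 126 and 3081, 35 and 2325, 3 and 2830, 32 and 3737, and 108 and 3575 under the alternatives, lowest with slide as a fixed block. Between treatments the mean over times called 0 genes, and 35 with that block, and at 24 h 0 and 80. Leaving out 1 array gave up to 4 there, up to 30 at 1 h, 158 at 1.5 h and 58 at 24 h, and 684 to 4566 for time in serum mice. For single genes, 1804 of 1875 values under alternatives stayed on their side of the threshold, 94 of them uncalled values that changed sign, 56 lost a call, 13 gained one and 2 called values turned sign, and the cause was not tested. With 2 or 3 mice a group, Cd36 near background and slides unevenly spread over times, small differences could not be resolved.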
